A study of Mus musculus with 66 samples.

Results

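The genes described here are the mouse Wnt ligands, the Frizzled receptors with the co-receptors Lrp5 and Lrp6, the secreted inhibitors of the Dkk and Sfrp families with Wif1, and the feedback target Axin2. They were taken by gene symbol, and 41 of the 55421 genes in the deposited tables matched: 19 ligands, 12 receptors, 9 inhibitors and 1 target. RNA with poly(A) tails was sequenced from hippocampi of C57BL/6 mice, each injected with an extract of control brain (Ctrl) or of Alzheimer's disease brain (AD). The series concerns tauopathy, aggregation of the protein tau, seeded in this way at different ages. All groups, controls included, therefore received an extract. Mice of 2 cohorts were labelled 3 months old (3mo) or 12 months old (12mo), and tissue was taken 1, 3 or 5 months post injection (mpi). In the 3mo cohort Ctrl had 5 libraries at each time, and AD had 6, 5 and 3 in order of time. In the 12mo cohort Ctrl had 5, 6 and 7 libraries and AD had 6, 6 and 7, which makes 66 libraries in all. Whether the age is that at injection or at collection is not in the labels, nor is the site of injection. Nor do they state that each library is 1 animal, and p-values therefore measure only how these libraries vary, which may be technical.

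Wnt proteins are secreted, lipid-modified signals that bind a Frizzled receptor together with Lrp5 or Lrp6 and stabilise beta-catenin, which then acts with Tcf and Lef factors on target genes such as Axin2. Sfrp proteins and Wif1 bind the ligands outside the cell, whereas Dkk1, Dkk2 and Dkk4 act on the Lrp co-receptors. Some ligands, among them Wnt5a and Wnt11, also signal without beta-catenin. In the hippocampus the pathway is known for its part in the birth of dentate granule neurons and in synapses, and in brain vessels Wnt7a and Wnt7b support the blood-brain barrier.

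Each library held 42462638 to 65907005 recovered reads. Levels are given as scaled RPM, reads relative to the depth of the library (RPM) after division by a scaling factor of each library, and 1 read was worth 0.0159 to 0.0233 of this unit. The hippocampal marker lists were present in every library: the summed level ran from 254 to 612 for 7 dentate granule cell genes, from 368 to 604 for 5 CA1 genes and from 127 to 215 for 6 CA2 and CA3 genes. Lists of neighbouring tissue varied more. The 14 choroid plexus genes, from the secretory epithelium of the ventricles, summed to 66.7 in the library 3mo 5 mpi AD 1 and to 10655 in 12mo 3 mpi AD 3. The 10 genes of meninges and fibroblasts summed to 97.2 to 459, and the 12 genes of thalamus and habenula to 103 to 494, with 3mo 1 mpi AD 1 (494) and 3mo 5 mpi Ctrl 4 (401) apart from the rest. In bulk tissue, fewer cells of a type and less RNA per cell cannot be told apart.

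To compare genes with each other, levels were divided by exon length and are given per kilobase, as the mean of the 12 group means. Among the ligands, Wnt7b stood at 7.80, Wnt4 at 3.96 and Wnt7a at 3.95 per kilobase, and the median over the 19 ligands was 0.576. Receptors were higher as a class, with a median of 2.48 over 12 genes and none of them under 0.278. Fzd3, a receptor known from axon guidance, led at 9.72 per kilobase, followed by the co-receptor Lrp6 (5.86) and by Fzd4 (3.92), which also binds the non-Wnt ligand norrin. Among the inhibitors Dkk3 stood at 126 per kilobase, far above Sfrp1 (2.84) and Sfrp5 (0.842). Dkk3 is the divergent member of its family. Axin2 stood at 3.97 per kilobase.

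Of the 41 genes, 5 were at or near the limit of detection, which was set at 3 reads in a library. Wnt1 did not exceed 3 reads in any of the 66 libraries, Dkk1 and Wnt8a did so in 1 library each, Dkk4 in 2 and Wnt3a in 36. Wnt1, Wnt8a, Dkk1 and Dkk4 were left out of all tests by the filter on low counts, as was Wnt3a in the 3mo cohort, so 36 members were tested in the 3mo table and 37 in the 12mo table.

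**Figure D1:**
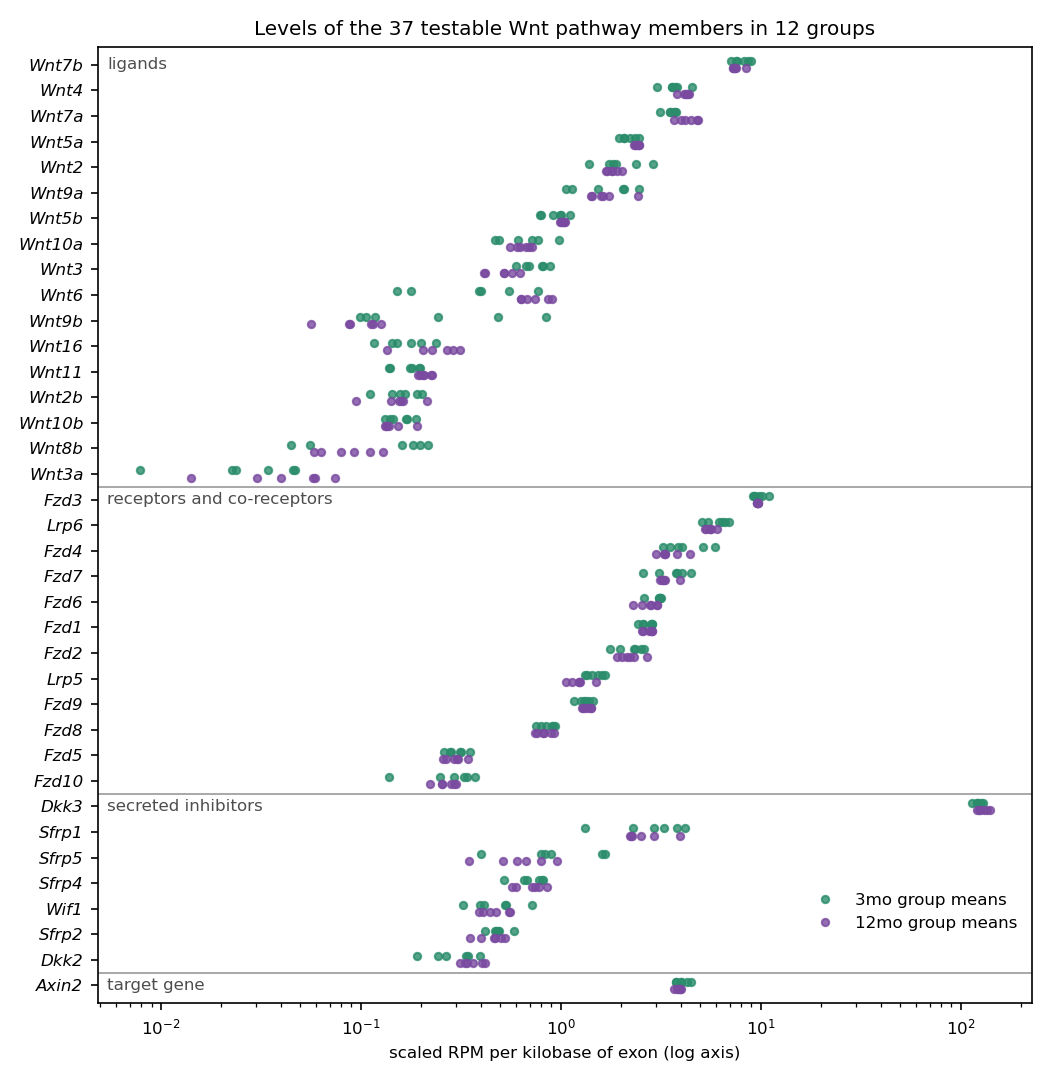
Mean level per kilobase of exon (log axis) of the 37 members that could be tested, grouped by role. Each point is the mean of 1 of the 12 groups, coloured by cohort. Dkk3 lies near 126, and Wnt6, Wnt9b and Wnt8b show the widest spread of group means among the ligands above Wnt3a.

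The most abundant members varied little across the 12 groups. Wnt7b per kilobase was 8.61, 7.65 and 8.25 in Ctrl and 8.99, 7.13 and 7.55 in AD at 1, 3 and 5 mpi of the 3mo cohort, and 8.42, 7.32 and 7.38 in Ctrl and 7.49, 7.27 and 7.52 in AD of the 12mo cohort. Wnt4, in the same order, was 3.62, 3.72 and 4.52 in Ctrl and 3.04, 3.83 and 3.62 in AD at 3mo, then 4.38, 4.35 and 4.14 in Ctrl and 3.83, 4.23 and 4.26 in AD at 12mo. Wnt7a was 3.5, 3.76 and 3.75 in Ctrl and 3.68, 3.51 and 3.14 in AD at 3mo, then 4.84, 3.68 and 4.81 in Ctrl and 4.20, 4.02 and 4.49 in AD at 12mo. For these ligands the highest group mean was 1.26, 1.49 and 1.54 times the lowest.

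Of the 3 highest receptors, Fzd3 and Lrp6 were similarly even and Fzd4 less so. Fzd3 was 11.0, 9.30 and 9.12 in Ctrl and 10.2, 9.78 and 9.35 in AD at 3mo, then 9.65, 9.74 and 9.64 in Ctrl and 9.73, 9.64 and 9.57 in AD at 12mo. Lrp6 was 6.18, 6.62 and 5.48 in Ctrl and 6.39, 6.97 and 5.08 in AD at 3mo, then 5.29, 5.62 and 5.35 in Ctrl and 6.06, 5.65 and 5.62 in AD at 12mo. Fzd4 was 3.85, 5.18 and 3.54 in Ctrl and 4.05, 5.94 and 3.26 in AD at 3mo, then 3.32, 3.33 and 3.01 in Ctrl and 4.43, 3.81 and 3.30 in AD at 12mo. Its highest group mean was 1.97 times its lowest, against 1.21 times for Fzd3 and 1.37 times for Lrp6. The widest such ratio among the receptors was that of Fzd10, at 2.69.

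Dkk3 was similarly steady, at 121, 122 and 121 in Ctrl and 126, 114 and 130 in AD at 3mo, then 132, 125 and 140 in Ctrl and 124, 121 and 135 in AD at 12mo. Sfrp1 was 2.93, 3.83 and 2.31 in Ctrl and 3.28, 4.17 and 1.32 in AD at 3mo, then 2.26, 2.28 and 2.22 in Ctrl and 3.97, 2.93 and 2.53 in AD at 12mo. Sfrp5 was 0.801, 1.68 and 0.896 in Ctrl and 0.834, 1.61 and 0.398 in AD at 3mo, then 0.602, 0.516 and 0.349 in Ctrl and 0.799, 0.954 and 0.668 in AD at 12mo. These Sfrp genes thus varied 3.16 and 4.8 times between the extreme groups, where Dkk3 varied 1.23 times. Axin2, the usual readout of beta-catenin signalling, was 3.78, 4.28 and 4.47 in Ctrl and 4.01, 4.01 and 3.79 in AD at 3mo, then 3.96, 3.98 and 3.69 in Ctrl and 3.85, 3.98 and 3.84 in AD at 12mo.

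The first question of the design is whether AD extract changed these genes against control extract. No member passed at an adjusted p under 0.05 in any of the 11 comparisons that involve the extract, by limma across all genes tested, by edgeR or by DESeq2. The share of all tested genes called by limma was 0% for the mean AD difference over the 3 times at 3mo and 0.00996% at 12mo, 0.0448% at 5 mpi of the 12mo cohort, 0.00498% for the change of the AD difference from 1 to 5 mpi at 12mo, and 0% in the other 7. For the mean AD difference at 3mo 0 of 36 members had an unadjusted p under 0.05, against 3.95% of all tested genes, and at 12mo 3 of 37 did, against 15.1%. The median log2 fold change of the members was -0.06 at 3mo and 0.0038 at 12mo.

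The 95% intervals say how large an effect these libraries leave room for. The interval of the mean AD difference lay within 0.5 on the log2 scale on both sides of 0 for 28 of 36 members at 3mo and for 29 of 37 at 12mo. For Axin2 it ran from -0.18 to 0.016 at 3mo and from -0.11 to 0.12 at 12mo. For Dkk3 it ran from -0.095 to 0.13 and from -0.13 to 0.0089. The widest intervals belonged to genes with few reads or large spread, Wnt9b at 3mo and Sfrp5 at 12mo.

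**Figure D2:**
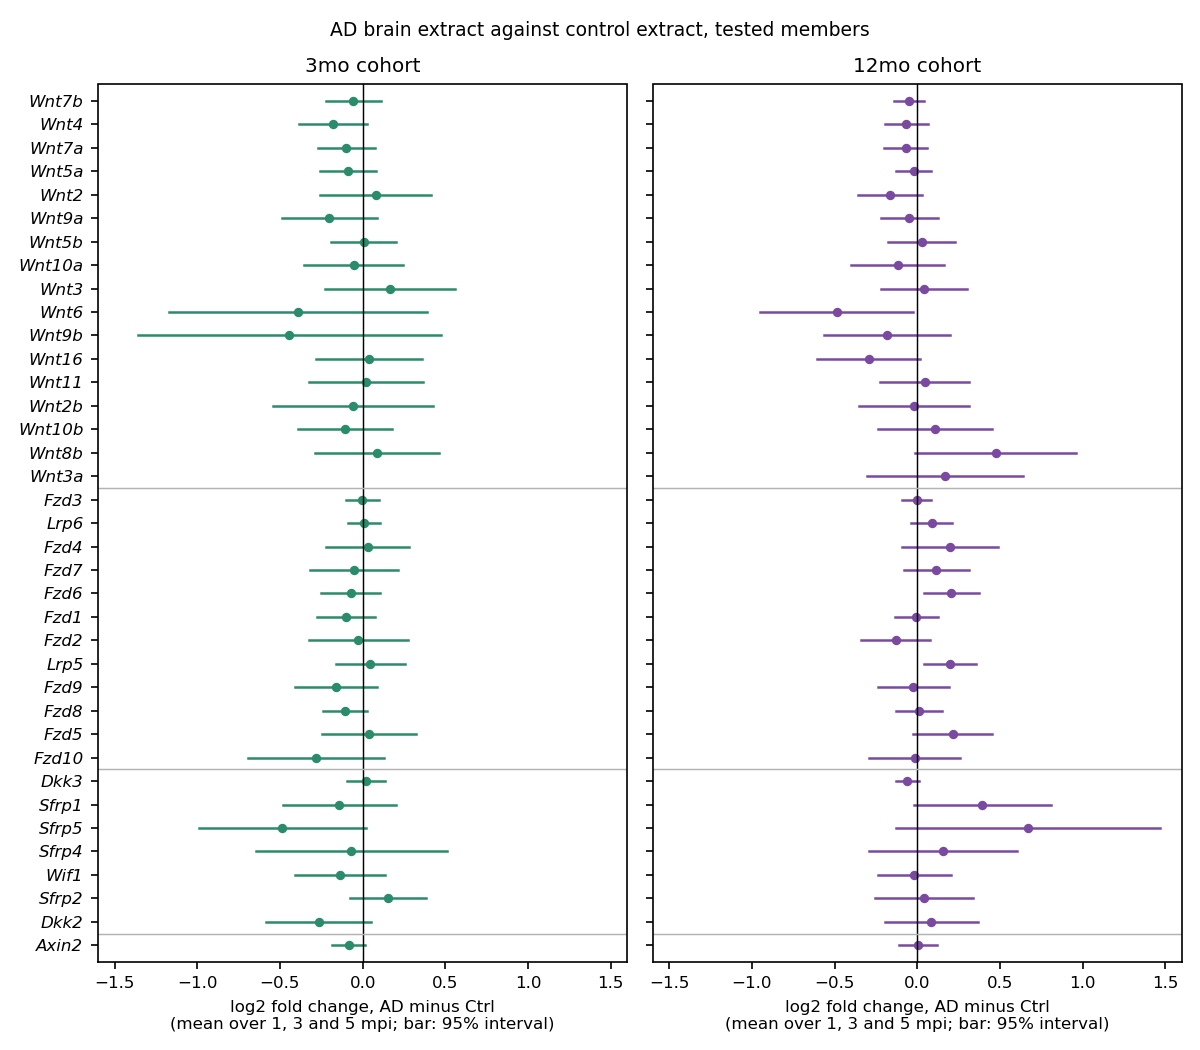
Log2 fold change of AD against Ctrl extract, averaged over 1, 3 and 5 mpi, for each tested member in the 3mo (left) and 12mo (right) cohort, with 95% intervals from limma. None passed the adjusted threshold. The intervals of Lrp5, Fzd6 and Wnt6 at 12mo do not cross 0, and at 3mo all do.

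The members with the smallest p for the mean AD difference were Sfrp5 (log2 fold change -0.49, SE 0.25) and Wnt4 (-0.18, SE 0.10) at 3mo, both with adjusted p = 1.00, and the receptors Lrp5 (0.20, SE 0.078, adjusted p = 0.233) and Fzd6 (0.21, SE 0.082, adjusted p = 0.238) at 12mo. Next at 12mo was the ligand Wnt6 (-0.49, SE 0.23, adjusted p = 0.306). Of the 19 AD libraries at 12mo, 13 were above the Ctrl mean of their time for Lrp5 and 13 for Fzd6. In a model that also held the mean log2 level of the meninges and fibroblast list, added after the data had been seen, both passed, Fzd6 at 0.25 (adjusted p = 0.0387) and Lrp5 at 0.23 (adjusted p = 0.0475). With the choroid plexus level in the model instead, or with the choroid plexus, meninges and thalamus levels together, 0 members passed. The mean choroid plexus sum at 12mo was 4799 in AD against 1879 in Ctrl at 1 mpi, 2867 against 1527 at 3 mpi and 2608 against 1602 at 5 mpi.

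At single times, Wnt16 at 3 mpi of the 12mo cohort had the smallest p of any member among the single-time comparisons of the extracts. Its level was 0.841, 1.12, 1.36, 1.51, 1.6 and 1.81 in Ctrl and 0.326, 0.543, 0.553, 0.567, 0.633 and 0.907 in AD, so that 1 AD library overlapped the lowest Ctrl library. The log2 fold change was -1.11 (SE 0.27, unadjusted p = 2.06e-04, adjusted p = 0.996 by limma). Wnt9a was second there at -0.46 (SE 0.15) and also lay lower in AD at 3 mpi of the 3mo cohort, at -0.42 (SE 0.23), without passing (adjusted p = 0.996 and 0.961). With it at 3mo 3 mpi stood Wnt10b, at -0.47 (SE 0.23). The pairs of smallest p at 1 mpi were Wnt10a (-0.42) and Wnt4 (-0.26) at 3mo, and Fzd6 (0.39) and Wnt9b (-0.80) at 12mo, none of which passed.

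At 5 mpi of the 3mo cohort, where AD has 3 libraries, Fzd10 (-1.27, SE 0.39) and the Lrp-binding inhibitor Dkk2 (-0.95, SE 0.30) came first, both with adjusted p = 0.905. There 8 of 36 members had an unadjusted p under 0.05, against 4.87% of all tested genes, 6 of 36 had a positive difference, against 52.0% of all tested genes, and the median member difference was -0.23, against 0.0052 over all tested genes. The choroid plexus list summed to 66.7 to 858 in these 3 AD libraries and to 110 to 4575 in the 5 Ctrl libraries. The meninges and fibroblast list summed to 97.2 to 313 in AD and 265 to 339 in Ctrl, and the list of mural cells, which wrap vessels, to 190 to 305 in AD and 260 to 310 in Ctrl. The part of these differences in the members' values was not tested. At 5 mpi of the 12mo cohort the smallest p belonged to Wif1 (0.48, SE 0.18, adjusted p = 0.475) and Wnt2b (0.62, SE 0.27, adjusted p = 0.521).

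The change of the AD difference from 1 to 5 mpi was likewise called in no member. Its smallest p-values were those of Axin2 (-0.32, SE 0.12) and Fzd10 (-1.28, SE 0.50) at 3mo and of Wnt2b (1.28, SE 0.40) and Wnt9b (1.40, SE 0.46) at 12mo. For the AD difference at 12mo minus that at 3mo they were Fzd6 (0.28, SE 0.12) and Sfrp5 (1.16, SE 0.52), each with adjusted p = 0.844.

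More members differed between the times after injection, averaged over both extracts. No group went without an extract, so time since injection cannot be told apart from other differences between mice taken at different times. These may include age at collection. Wnt9a rose and Wnt8b fell in the 3mo cohort, and the sequences before their starts differ in CG content, a feature of many broadly used promoters. RefSeq (build GRCm38.p6) gave promoter windows for 27 of the 41 members, and the 250 bases before the start are printed here 5' to 3' with CG dinucleotides in capitals for these opposed ligands and for Wnt6 and Fzd7, which followed meningeal and choroid plexus markers below. All 4 genes are on the plus strand.
Wnt9a chr11:59306680-59306929: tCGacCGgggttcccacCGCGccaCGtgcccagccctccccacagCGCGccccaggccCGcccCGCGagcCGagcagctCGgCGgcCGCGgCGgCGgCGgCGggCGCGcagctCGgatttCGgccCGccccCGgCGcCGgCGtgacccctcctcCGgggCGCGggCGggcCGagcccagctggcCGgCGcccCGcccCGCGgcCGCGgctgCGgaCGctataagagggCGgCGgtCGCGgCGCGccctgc
Wnt8b chr19:44493222-44493471: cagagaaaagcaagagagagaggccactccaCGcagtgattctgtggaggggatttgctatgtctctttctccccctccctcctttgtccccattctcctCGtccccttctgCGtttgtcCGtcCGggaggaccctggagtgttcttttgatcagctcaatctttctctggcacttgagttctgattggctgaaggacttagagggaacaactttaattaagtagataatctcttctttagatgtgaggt
Wnt6 chr1:74771642-74771891: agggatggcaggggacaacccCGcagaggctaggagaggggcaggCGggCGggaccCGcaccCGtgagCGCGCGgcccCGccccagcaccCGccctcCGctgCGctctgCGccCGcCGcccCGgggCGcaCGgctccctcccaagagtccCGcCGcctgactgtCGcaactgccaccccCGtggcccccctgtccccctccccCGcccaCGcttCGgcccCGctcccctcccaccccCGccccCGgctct
Fzd7 chr1:59481897-59482146: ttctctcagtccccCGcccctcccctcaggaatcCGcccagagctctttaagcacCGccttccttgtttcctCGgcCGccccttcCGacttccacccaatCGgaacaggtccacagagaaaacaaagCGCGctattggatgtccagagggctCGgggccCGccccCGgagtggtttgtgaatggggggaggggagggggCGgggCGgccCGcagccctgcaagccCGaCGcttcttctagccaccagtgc

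The Wnt9a window holds 48 CG, the Wnt6 window 28, the Fzd7 window 17 and the Wnt8b window 5, where the median is 22 over the members' windows and 6 over all 32851 windows. As few as in Wnt8b, or fewer, were found in 49.6% of all windows, and as few as in Wnt9a in 99.9%. The last bases of the Wnt9a window lie in its annotated exon. The Tcf and Lef motif CTTTGAT, searched on both strands, lay in the windows of Wnt11 and Wnt5b and in 3.21% of all windows of this length. The motif TAATCC of Otx2, a factor of choroid plexus, lay in those of Fzd1, Sfrp2 and Wnt11 and in 6.25% of all windows. In the 4 printed windows neither was found.

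From 1 to 3 mpi at 3mo, 3 members rose and 2 fell, 5 of 36, where limma called 7.54% of all tested genes (3.61% higher, 3.93% lower). Wnt9a, a canonical ligand on chromosome 11 (59306928 to 59333552, GRCm38), rose by 0.73 (SE 0.16, adjusted p = 0.00712). The Wnt-binding inhibitor Sfrp5 rose by 1.03 (SE 0.28, adjusted p = 0.0259), from a median of 1.67 (range 0.549 to 2.45, n = 11) to 3.18 (range 1.71 to 4.25, n = 10). Fzd4 rose by 0.52 (SE 0.14, adjusted p = 0.0235), from a median of 28.1 (12.7 to 33.6) to 37.2 (24.8 to 46.5).

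Wnt10a fell by 0.68 on the log2 scale over the same interval (SE 0.17, adjusted p = 0.0132). Its median was 1.73 (range 0.956 to 3.96) at 1 mpi and 1.18 (0.891 to 1.5) at 3 mpi, so that the high libraries were at 1 mpi and the ranges overlapped. Wnt9b fell by 1.74 (SE 0.51, adjusted p = 0.0370). Its 1 mpi libraries were uneven, at 0.637, 0.679, 1.18, 3.40 and 13.2 in Ctrl and from 0.468 through a median of 1.11 to 6.36 in AD, while at 3 mpi it was 0.0874 to 1.22. Without each of 8 libraries in turn (1 mpi Ctrl 1, Ctrl 3 and AD 6; 3 mpi Ctrl 2, Ctrl 5, AD 1, AD 2 and AD 4) the Wnt9b call was lost, with an adjusted p of up to 0.0783. Fzd4 missed the threshold without 1 mpi Ctrl 3 (adjusted p = 0.0526) and Sfrp5 without 3 mpi AD 4 (adjusted p = 0.0503), and without either library 3 members were called.

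From 1 to 5 mpi at 3mo, 9 of 36 members were called, 4 higher and 5 lower, or 25%, near the 23.3% of all tested genes. Wnt9a rose by 1.07 (SE 0.18, adjusted p = 1.76e-04). The Ctrl libraries of 1 mpi were at 1.94, 3.37, 3.43, 4.13 and 4.88, those of 3 mpi at 5.45, 6.5, 6.72, 7.11 and 8.21, and those of 5 mpi at 6.43, 7.08, 7.53, 9.19 and 10.6. The AD libraries ran from 2.26 to 6.82 with a median of 3.35 at 1 mpi, those of 3 mpi were at 3.85, 3.94, 5.48, 5.6 and 6.76, and those of 5 mpi at 5.62, 7.10 and 7.97. The Ctrl libraries of 1 mpi lay below all those of 3 and 5 mpi, whereas the AD ranges of 1 mpi overlapped those of 3 and 5 mpi. The call stood without each of the 29 libraries in turn.

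Wnt8b, a ligand known from the cortical hem that borders the forming hippocampus, went the other way. The Ctrl libraries of 1 mpi were at 0.353, 0.361, 0.555, 0.769 and 0.775, those of 3 mpi at 0.532, 0.573, 0.683, 0.693 and 0.696, and those of 5 mpi at 0.0613, 0.106, 0.157, 0.229 and 0.413. The AD libraries ran from 0.244 to 1.17 with a median of 0.677 at 1 mpi, those of 3 mpi were at 0.490, 0.697, 0.827, 0.831 and 0.922, and those of 5 mpi at 0.0676, 0.155 and 0.247. All libraries of 3 mpi lay within the range of 1 mpi and above all those of 5 mpi. It fell by 1.40 from 1 to 5 mpi (SE 0.23, adjusted p = 1.56e-04) and did not pass from 1 to 3 mpi (0.20, SE 0.21). The 8 libraries of 5 mpi held 3 to 21 reads of Wnt8b each, and the call stood without each of the 29 libraries in turn.

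The other members that rose were the ligands Wnt6 (1.34, SE 0.48, adjusted p = 0.0409), Wnt16 (0.67, SE 0.20, adjusted p = 0.0144) and Wnt5b (0.40, SE 0.12, adjusted p = 0.0176). Wnt6 had a median of 0.256 (range 0.0662 to 0.872, n = 11) at 1 mpi and of 1.59 (0.103 to 2.23, n = 8) at 5 mpi, where all 5 Ctrl libraries were at 1.44 to 2.14 and the 3 AD libraries at 0.103, 0.293 and 2.23. Leaving out 1 library ended the Wnt6 call in 12 cases (1 mpi Ctrl 2 and 3 and AD 2, 3, 4 and 6, 5 mpi Ctrl 2, 3, 4 and 5 and AD 1 and 2), with log2 fold changes from 0.84 to 1.72 over all 29 and an adjusted p of up to 0.211. Without 5 mpi AD 2 the calls of Wnt16 (0.53, adjusted p = 0.0681) and Wnt5b (0.36, adjusted p = 0.0537) were lost as well.

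Besides Wnt8b, the inhibitor Sfrp1 fell by 0.80 (SE 0.21, adjusted p = 0.00690), from a median of 14.8 (range 6.04 to 18.8) to 6.19 (5.29 to 16.5), with all 3 AD libraries of 5 mpi between 5.29 and 6.26. Wnt2 fell by 0.57 (SE 0.20, adjusted p = 0.0415), from a median of 5.06 (2.92 to 11.5) to 3.5 (2.61 to 4.57). Lrp6 fell by 0.25 (SE 0.059, adjusted p = 0.00368), from a median of 89.9 (69.3 to 97.2) to 71.5 (67.3 to 81.3), and Fzd3 by 0.19. Wnt2 lost its call without any 1 of 12 libraries (1 mpi Ctrl 1, 3 and 4 and AD 3 and 6, 5 mpi Ctrl 1, 2, 4 and 5 and AD 1, 2 and 3; adjusted p up to 0.0943), and Fzd3 without 1 mpi Ctrl 3, 5 mpi Ctrl 3 or 5 mpi AD 2 (adjusted p from 0.0503 to 0.0788).

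Marker lists moved over the same interval. All 14 choroid plexus genes fell, with a median log2 fold change of -2.51, and so did 7 of 8 oligodendrocyte genes (median -0.40) and 6 of 7 microglial genes (median -0.31), while 3 of 6 neuronal genes rose. The summed choroid plexus level was 2474 to 6365 in Ctrl and 218 to 8221 in AD at 1 mpi, and 110 to 4575 and 66.7 to 858 at 5 mpi. With the mean log2 level of the choroid plexus list in the model, Lrp6 stood at -0.050 (adjusted p = 0.574), Sfrp1 at 0.015 (adjusted p = 0.958) and Wnt6 at 1.57 (adjusted p = 0.102), none of them called. Wnt9a (1.11, adjusted p = 0.00410) and Wnt8b (-0.94, adjusted p = 0.0251) were called in that model. Wnt4 (0.48, adjusted p = 0.0432), Dkk2 (-0.69, adjusted p = 0.0443) and Fzd4 (0.37, adjusted p = 0.0469) were called there and not without the covariate.

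**Figure D3:**
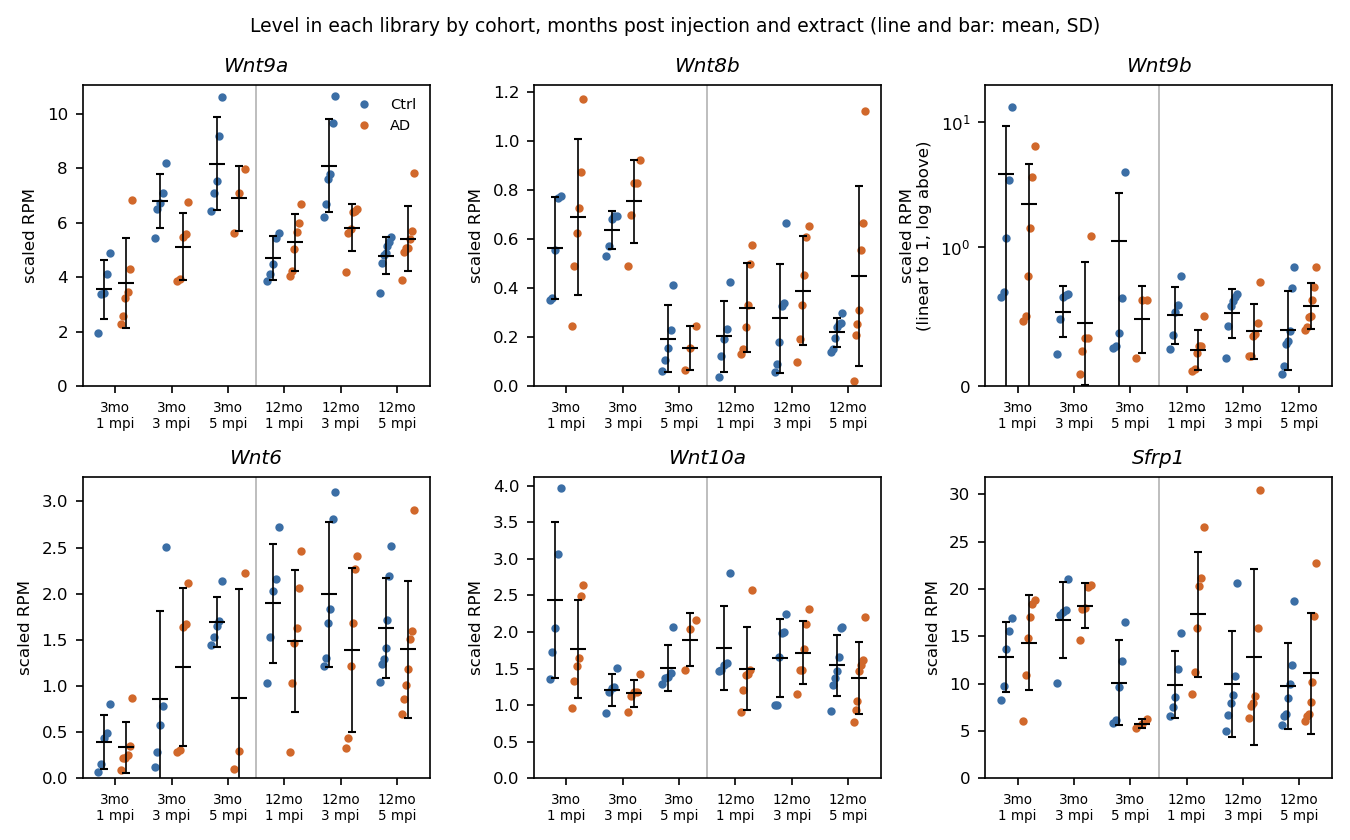
Level in each library (points) of 6 members by cohort, months post injection and extract (Ctrl blue, AD orange), with mean and SD (SD bars end at 0 where they would go below; the Wnt9b axis is linear up to 1 and logarithmic above). In the 3mo cohort Wnt9a climbs from a median of 3.43 at 1 mpi to 7.31 at 5 mpi while Wnt8b drops from 0.625 to 0.156, whereas in the 12mo cohort the medians at these times are 5.05 and 5.07 for Wnt9a and 0.232 and 0.253 for Wnt8b.

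In the 12mo cohort fewer members were called over time, as were fewer of all tested genes. From 1 to 3 mpi 1 of 37 was called, where limma called 2.28% of all tested genes (0.966% higher, 1.31% lower). This was again Wnt9a, which rose by 0.45 (SE 0.11, adjusted p = 0.0175), from a median of 5.05 (range 3.84 to 6.69, n = 11) to 6.46 (4.21 to 10.6, n = 12), and kept its call without each of the 37 libraries in turn. From 1 to 5 mpi 0 of 37 were called, against 1.43% of all tested genes (0.986% lower), and 7 members had an unadjusted p under 0.05, against 14.1% of all tested genes. The smallest p-values there belonged to Wnt3 (-0.49, SE 0.16, adjusted p = 0.105) and Fzd2 (-0.36, SE 0.13, adjusted p = 0.155). Wnt9a itself had a median of 5.07 at 5 mpi (3.40 to 7.82, n = 14), with a difference from 1 mpi of 0.028 (SE 0.10).

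Whether the cohorts differ in their change over time was tested directly, in a comparison added after the data had been seen. For the change from 1 to 5 mpi, 3 of 37 members differed between 12mo and 3mo, against 8.14% of all tested genes. Given as 12mo minus 3mo, the signed change of Wnt9a, which rose at 3mo, differed by -1.03 (SE 0.20, adjusted p = 7.10e-04). That of Wnt8b, which fell at 3mo, differed by 1.6 (SE 0.40, adjusted p = 0.00784). That of Wnt9b differed by 1.76 (SE 0.56, adjusted p = 0.0389). Its mean went from 2.93 at 1 mpi to 0.872 at 5 mpi at 3mo, and from 0.371 to 0.488 at 12mo. The larger change was thus the fall at 3mo. The Wnt9b call was lost without any 1 of 12 libraries (adjusted p up to 0.0965). Those were, at 3mo, 1 mpi Ctrl 1 and 3 and AD 1 and 6, 5 mpi Ctrl 1, 2 and 3 and AD 1 and 2, and, at 12mo, 1 mpi Ctrl 3 and 5 mpi Ctrl 3 and 5. For the change from 1 to 3 mpi 0 of 37 differed by limma (background 0.258%), 9 had an unadjusted p under 0.05, against 12.3% of all tested genes, and edgeR and DESeq2 called 1 each, while 1 was also called without 3mo 1 mpi Ctrl 2 or Ctrl 5. Wnt8b at 12mo already stood at a median of 0.232 (0.0387 to 0.574) at 1 mpi, below the 0.625 of the 3mo cohort.

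Since neighbouring tissue varied between libraries, each gene was also regressed on the mean log2 level of 3 marker lists within the 6 groups of a cohort, in a model added after the data had been seen. A slope is the change in log2 level of the gene for each unit of the list's mean log2 level, with the other lists held. For choroid plexus 5 of 36 members had a slope at 3mo (background 5.37%) and 8 of 37 at 12mo (background 8.67%), and 4 were called in both cohorts. Sfrp1 had a slope of 0.33 (SE 0.035, adjusted p = 2.25e-07) at 3mo and 0.34 (SE 0.029, adjusted p = 2.44e-11) at 12mo. Its highest level, 30.5, was in 12mo 3 mpi AD 3, where the choroid plexus sum was 10655. Fzd4 had slopes of 0.23 (SE 0.031) and 0.23 (SE 0.022), Lrp6 of 0.083 and 0.082, and Fzd7 of 0.19 and 0.12.

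Sfrp5 had the steepest choroid plexus slope among the members at 12mo, 0.62 (SE 0.085, adjusted p = 9.91e-07), and was not called at 3mo. Fzd5 (0.12), Lrp5 (0.10) and Fzd6 (0.091) were also called at 12mo. At 3mo their slopes were 0.11, 0.11 and 0.074, not called, and that of Sfrp5 was 0.29 (adjusted p = 0.0595). The difference between cohorts was not tested. Dkk2 was the 1 member called with a negative slope, -0.22 (SE 0.053, adjusted p = 0.00852) at 3mo. Without 3mo 1 mpi AD 3, the library with the lowest choroid plexus sum of its group (218), the 3mo calls of Dkk2 (adjusted p = 0.205) and Fzd7 (adjusted p = 0.0798) were lost and 3 members were called. The Fzd5 call was lost without any 1 of 7 libraries of the 12mo cohort (1 mpi Ctrl 1 and AD 2, 3 and 4, 3 mpi AD 5, 5 mpi AD 6 and 7; adjusted p up to 0.0909).

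For meninges and fibroblasts 4 of 36 members had a slope at 3mo (background 2.86%) and 5 of 37 at 12mo (background 2.55%), all positive. Wnt6 was the steepest in both, at 1.53 (SE 0.17, adjusted p = 1.19e-06) and 1.41 (SE 0.17, adjusted p = 3.05e-07). Wnt5a, which acts mainly without beta-catenin, had slopes of 0.28 (SE 0.044) and 0.27 (SE 0.047), and Wnt4 of 0.29 in both. Fzd2 (0.43) was called at 3mo, and Fzd7 (0.31) and Fzd6 (0.26) at 12mo. In the other cohort these slopes were 0.34, 0.099 and 0.11 and were not called. Wnt6, Wnt5a and Wnt4 were the 3 shared by both cohorts. The calls of Wnt4, Fzd6 and Fzd7 at 12mo were lost without 1 mpi AD 2 (adjusted p = 0.0613, 0.0813 and 0.209), which left 2 members. At 3mo that of Wnt4 was lost without 3 mpi Ctrl 3 or 4 or 5 mpi AD 3 (up to 0.142), and that of Fzd2 without 1 mpi Ctrl 5, 3 mpi Ctrl 3 or AD 5, or 5 mpi Ctrl 4, AD 2 or AD 3 (up to 0.130); without 3 mpi Ctrl 3 or 5 mpi AD 3, 2 members were called.

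For thalamus and habenula the canonical ligands Wnt3 (0.79, SE 0.12, adjusted p = 2.72e-04) and Wnt2b (0.62, SE 0.14, adjusted p = 0.0429) had slopes at 3mo, 2 of 36 against a background of 0.471%, and 0 of 37 did at 12mo (background 0.0498%). Wnt3 was 7.37 in 3mo 1 mpi AD 1 and 5.64 in 3mo 5 mpi Ctrl 4, the libraries with the highest thalamus sums, while every other library of the 3mo cohort was at 1.32 to 2.79. The Wnt3 slope was 0.63 to 0.87 over the fits without 1 library. That of Wnt2b was lost in 16 of the 29 fits, 1 of them the fit without 3mo 1 mpi AD 1 (adjusted p up to 0.822). Each such fit kept at least 1 of the 2 libraries with the highest thalamus sums, and no slope was fitted without both. At 12mo the thalamus sum ran only from 108 to 178, so the 0 calls there say little about these genes.

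**Figure D4:**
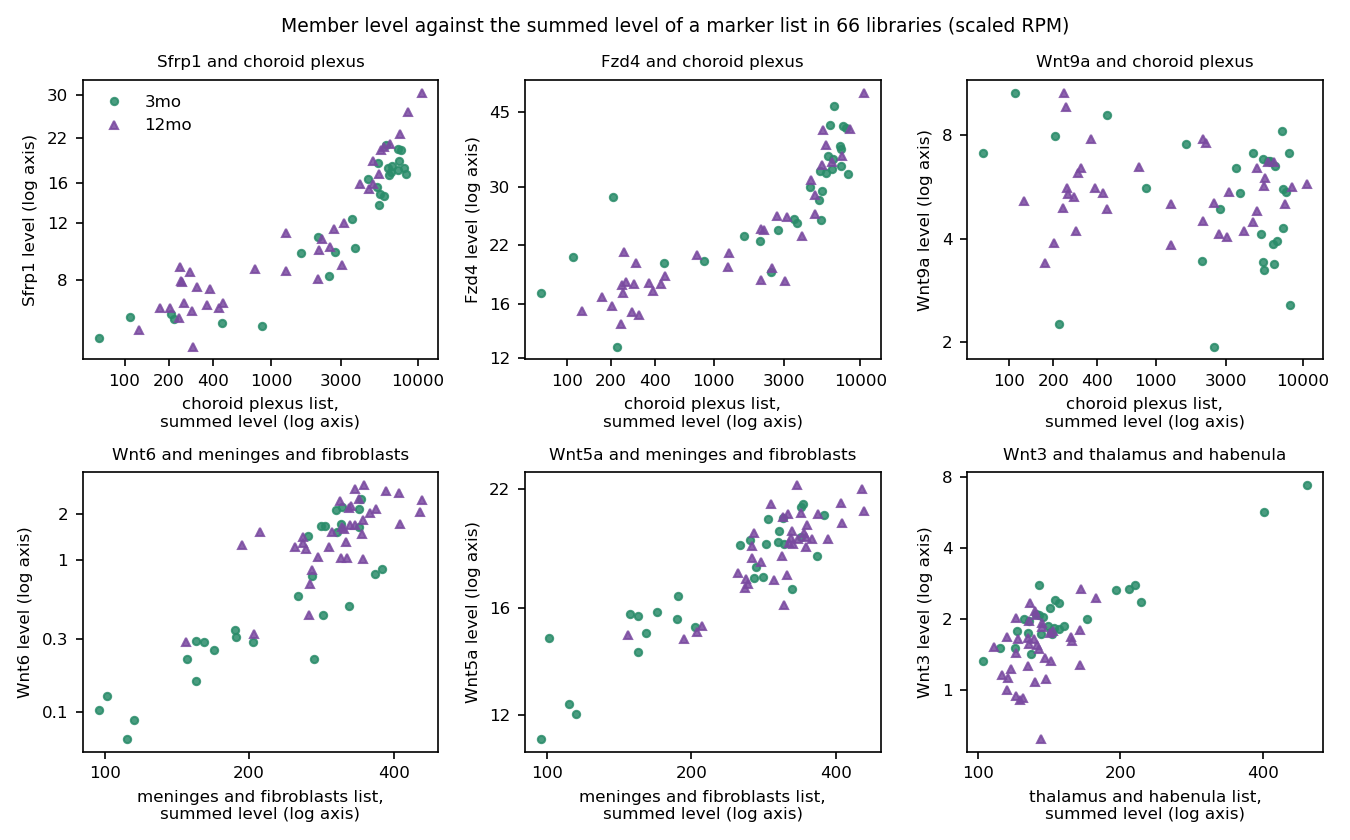
Level of a member against the summed level of a marker list in each of the 66 libraries, both in scaled RPM on log axes (3mo circles, 12mo triangles). Sfrp1 and Fzd4 are high where the choroid plexus sum is high, Wnt6 and Wnt5a where the meninges and fibroblast sum is high, and Wnt3 in the 2 libraries with thalamus sums of 401 and 494, whereas Wnt9a was not called on the choroid plexus level in either cohort.

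The last comparison sets the 12mo cohort against the 3mo cohort over the 6 matched groups. The cohorts were deposited in separate tables, so age cannot be told apart from cohort or from any step at which they were handled separately. Of 37 members 15 were called, or 40.5%, near the 35.7% of all tested genes: 6 ligands and the inhibitor Dkk2 were higher at 12mo, and 3 ligands, 4 receptors and the inhibitor Sfrp5 were lower. Wnt6 was higher by 1.16 (SE 0.22, adjusted p = 2.10e-05), with a median of 1.53 (range 0.287 to 3.10, n = 37) against 0.495 (0.0662 to 2.51, n = 29). Its medians at 1, 3 and 5 mpi were 1.63, 1.68 and 1.35 at 12mo and 0.256, 0.677 and 1.59 at 3mo, so that it was not higher at 5 mpi. In its change from 1 to 5 mpi edgeR and DESeq2 each called a cohort difference of -1.89, given as 12mo minus 3mo, which limma did not call. Wnt16 was higher by 0.40 (SE 0.11, adjusted p = 0.00457), Dkk2 by 0.29 (SE 0.11, adjusted p = 0.0294) and Wnt7a by 0.27 (SE 0.053, adjusted p = 3.97e-05). Wnt7a had a median of 14.2 (9.14 to 18.0) against 11.5 (7.26 to 14.8), so these ranges overlapped widely. Wnt11 (0.26), Wnt4 (0.18) and Wnt5a (0.14) were higher by less.

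Among the lower members, Sfrp5 differed by -0.88 (SE 0.26, adjusted p = 0.00586), with a median of 0.932 (0.0201 to 4.99) against 1.98 (0.135 to 4.25). Wnt9b differed by -0.74 (SE 0.23, adjusted p = 0.00798), Wnt8b by -0.53 (SE 0.16, adjusted p = 0.00763) and Wnt3 by -0.48 (SE 0.11, adjusted p = 5.16e-04). The mean of Wnt9b at 1, 3 and 5 mpi was 2.93, 0.492 and 0.872 at 3mo and 0.371, 0.458 and 0.488 at 12mo. Wnt9b thus differed most at 1 mpi, where the 3mo libraries were uneven. The median of Wnt8b was 0.625, 0.695 and 0.156 at 3mo and 0.232, 0.329 and 0.253 at 12mo. Wnt8b was thus not lower at 12mo at 5 mpi. The receptors were lower by smaller steps, Fzd4 by -0.31, Lrp5 by -0.27, Fzd6 by -0.16 and Lrp6 by -0.14. Fzd4 and Lrp6 differed most at 3 mpi. The mean of Fzd4 at 1, 3 and 5 mpi was 26.6, 37.4 and 23.1 at 3mo and 26.4, 24.0 and 21.2 at 12mo. That of Lrp6 was 86.1, 92.9 and 72.8 at 3mo and 78.1, 77.0 and 75.0 at 12mo. Dkk3 (0.074, adjusted p = 0.0638) and Axin2 (-0.077, adjusted p = 0.118) did not pass. Dkk3 did pass under DESeq2's size factors (0.078, adjusted p = 0.0478) and with each table as deposited (0.086, adjusted p = 0.0291).

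The marker lists differed between the cohorts too: 5 of 14 choroid plexus genes were lower at 12mo (median of the list -0.81), 6 of 10 genes of meninges and fibroblasts were higher (median 0.39) and 6 of 7 microglial genes were higher (median 0.20). The 4 Y-linked genes had a median of -1.20 and none was called. Within every group their sum ran from 1.06 or less to 172 or more, so each group mixed libraries with and nearly without these transcripts. The shares were uneven, with a median sum from 0.274 in 12mo 5 mpi AD to 192 in 3mo 1 mpi Ctrl. Dkk2 no longer passed with the Y-linked level in the model (0.25, adjusted p = 0.0550). With the choroid plexus level in the model, Sfrp5 (-0.44), Fzd4 (-0.11), Fzd6 (-0.075) and Lrp6 (-0.067) no longer passed, nor did Dkk2 (0.22). Wnt7b was called in that model (-0.13, adjusted p = 0.0187) and not without a covariate. With the level of meninges and fibroblasts instead, Wnt16 (0.18), Dkk2 (0.18), Wnt11 (0.080) and Wnt4 (0.023) no longer passed, Wnt5a was at -0.016, and Wnt6 was called at 0.45 (adjusted p = 0.00279). Members called with the meninges level and not without a covariate were Dkk3 (0.14, adjusted p = 3.21e-04) and Axin2 (-0.13, adjusted p = 0.0115). So were Sfrp1 (-0.41), Wnt2b (-0.33), Fzd7 (-0.28), Fzd5 (-0.23) and Fzd2 (-0.21). With choroid plexus, meninges and thalamus together 6 members were called, among them Wnt7a (0.22, adjusted p = 0.0132) and Lrp5 (-0.31, adjusted p = 3.19e-05), while Wnt6 stood at 0.34 (adjusted p = 0.0775). The models with the meninges level were added after the data had been seen.

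**Figure D5:**
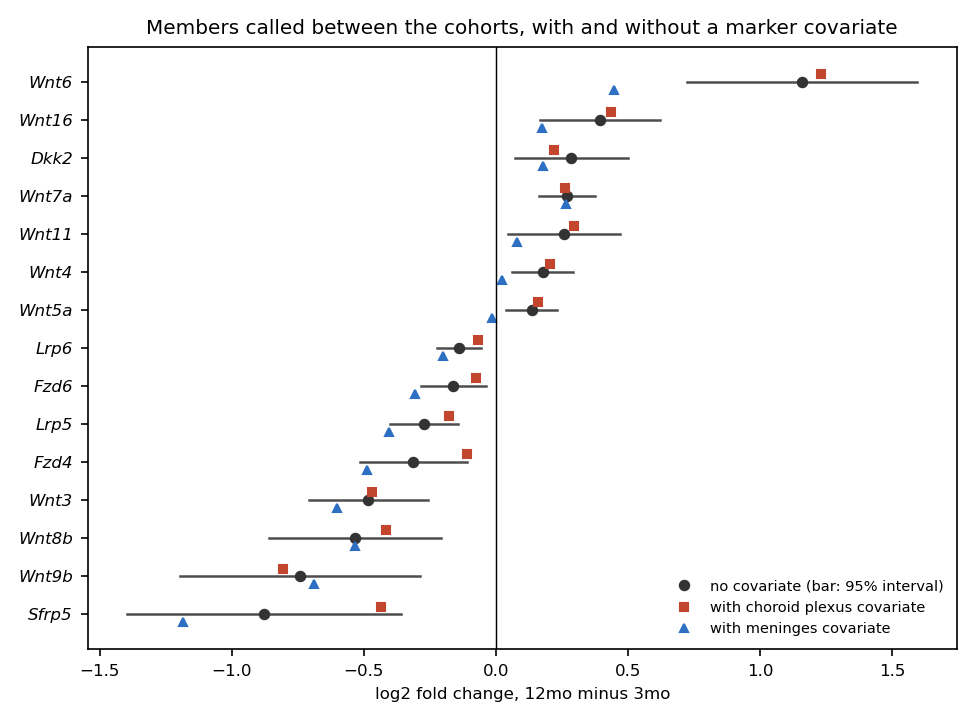
Log2 fold change of 12mo against 3mo for the 15 members called between the cohorts (black, with 95% intervals from limma), and the same with the choroid plexus level (red squares) or the meninges and fibroblast level (blue triangles) as a covariate. Wnt7a keeps nearly the same value in all 3 fits, Wnt6 goes from 1.16 to 0.45 with the meninges level, and Sfrp5 from -0.88 to -0.44 with the choroid plexus level.

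Leaving out 1 library ended few of the calls between cohorts: that of Dkk2 without 3mo 1 mpi Ctrl 2 (adjusted p = 0.0501) or 3mo 5 mpi AD 3 (0.0767), that of Fzd6 without 3mo 5 mpi AD 1 (0.0635) or 12mo 3 mpi Ctrl 3 (0.0504), and that of Wnt5a without 3mo 5 mpi AD 3 (0.0881). The call of Wnt11, at an adjusted p of 0.0499, was lost in 43 of 66 such fits. Reads of Wnt11, Wnt5a, Wnt7b, Fzd5, Fzd6, Sfrp2 and Axin2 may include those of an overlapping gene on the other strand, since the use of strand is not given in the sources used here.

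Of 88 other genes of the pathway, in 7 lists, none passed in a comparison that involves the extract. From 1 to 5 mpi at 3mo 9 of 85 tested rose and 8 fell, 20% against the 23.3% of all genes. Of 12 other secreted or membrane inhibitors 4 fell and 1 rose: Sostdc1, an inhibitor known in choroid plexus, fell by 1.98 (SE 0.40), Draxin, a secreted guidance protein related to the Dkk family that also limits Wnt signalling, fell by 1.21 (SE 0.18), and Cthrc1 fell by 0.30 and Kremen1 by 0.29, while Frzb, a further Sfrp family member, rose by 0.44. In the beta-catenin destruction complex and Dishevelled list 4 of 15 rose (Dvl2 0.26, Gsk3a 0.20, Apc2 0.20, Csnk1e 0.11) and 2 fell (Apc -0.17, Ctnnb1 -0.13). Of 7 secretion factors and R-spondins tested Porcn, the acyltransferase that modifies Wnt ligands, rose by 0.22. Of 12 Tcf and Lef factors and co-factors Pygo1 (0.14) and Bcl9 (0.12) rose, of 13 further receptors Ryk fell (-0.15), and of 16 genes of the planar polarity and calcium branch Vangl2 rose (0.20) and Rhoa fell (-0.11). None of 10 tested feedback and target genes was called, 0 against 23.3%.

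From 1 to 3 mpi the 3mo cohort had 2 pathway genes higher and 5 lower, 8.24% against 7.54%. These were Nkd2 (0.37) and Dvl2 (0.26), and Draxin (-0.67), Lgr6 (-0.59), Prickle1 (-0.16), Apc (-0.15) and Ctnnb1 (-0.11). At 12mo 0 rose and 4 fell over that interval, 4.65% against 2.28%: Draxin (-0.64), Ndp, which encodes norrin (-0.30), Ccnd1 (-0.24) and Ryk (-0.20). From 1 to 5 mpi at 12mo the transcription factor Tcf7l2, which is strongly expressed in thalamus, fell by 0.54 (SE 0.13, adjusted p = 0.0245), the 1 call of 86, where 0 members were called. The thalamus and habenula list summed to 128 to 165 in Ctrl and 115 to 178 in AD at 1 mpi and to 108 to 144 and 116 to 143 at 5 mpi, 1 of its 12 genes fell, and its part in the Tcf7l2 result was not tested.

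Between the cohorts 13 of 86 pathway genes were higher at 12mo and 22 lower, 40.7% against 35.7%. The destruction complex and Dishevelled list had 10 of 15 called, 9 of them lower: Apc2 (-0.17), Dvl2 (-0.16), Amer1 (-0.15) and Apc (-0.12) had the largest falls, and Csnk1e (0.064) was the 1 higher. In the planar polarity branch Celsr3 (-0.32), Celsr2 (-0.31), Celsr1 (-0.20) and Vangl2 (-0.18) were lower and Nfatc3 (0.11) and Rac1 (0.088) higher, 7 of 16 in all. The co-activators Bcl9l (-0.20) and Bcl9 (-0.19) were lower and the co-repressor Tle4 (0.11) higher. All 5 target and feedback genes called were higher, where 16.9% of all tested genes were called higher and 18.8% lower. The largest were Twist1 (0.33), Neurod1 (0.22), Id2 (0.19) and Ccnd1 (0.13). Axin2, the target among the members, was not called, and was called lower (-0.13) with the meninges level in the model. Of the inhibitors Sost (-0.84), Draxin (-0.59) and Apcdd1 (-0.16) were lower and Bambi (0.25) higher. The R-spondins Rspo3 (0.26) and Rspo2 (0.22) and their receptor Lgr4 (0.14) were higher, and Porcn (-0.13), Ror1 (-0.14) and Lrp4 (-0.095) lower. The largest adjusted p among the genes named for this comparison was 0.0319, that of Ror1. In the change from 1 to 5 mpi the cohorts differed in 8 pathway genes, 9.30% against 8.14%. As 12mo minus 3mo, the signed change was positive for Kremen1 (0.34), Daam2 (0.29), Apc (0.22) and Csnk1a1 (0.18). It was negative for Tpbg (-0.53), Vangl2 (-0.36), Gsk3a (-0.20) and Apc2 (-0.20). A positive value is not a larger change at 12mo, since Kremen1 (-0.29) and Apc (-0.17) had fallen at 3mo.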

How the data were processed

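The deposited values, 1 table per cohort, are a signal, which the authors made from RPM by dividing each library by a scaling factor of its own. STAR, Picard, edgeR and GRCm38 are named in the submitters' processing notes, with no version. Which annotation served, how reads were assigned to genes and whether strand was used is not given in the sources used here. Whole reads were recovered for 100% of values (tolerance 0.01 reads), with factors of 0.957 to 1.04. All p-values are from limma 3.58.1 (R 4.3.3) on log2(value + 0.1), with a trend and 1 mean per group, over genes kept by edgeR 4.0.16 filterByExpr (count 10, total 15), Benjamini-Hochberg adjusted over all of them, called under 0.05. Fold changes are on this scale and understate those of low genes. For comparisons of the cohorts, the recovered reads of both tables were scaled together by TMM. Every member called is named; where over 8 were called, the 4 highest and 4 lowest are given in full, and where none was, the 2 of smallest p. Of the other pathway genes called, up to 4 per list and direction are named. Exon lengths are from GENCODE vM21. edgeR's quasi-likelihood test and DESeq2 1.42.0 on the recovered reads, other filters, pseudocounts and scalings, marker covariates, a replicate block and leaving out each library were alternatives. The members and lists were chosen with earlier results of these data known. The script was tested on simulated data.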

Additional observations from a re-analysis of the deposited data

Results flagged for a closer look

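In groups of 4 to 10 libraries, the highest or lowest library was checked for standing apart from the rest by a gap above Dixon's 95% critical value. Of 264 such groups, over 24 members, 20 had one, and chance flags about 1 in 20 groups. Among the ligands these were Wnt9b at 13.2 in 3mo 1 mpi Ctrl 1, at 1.22 in 3mo 3 mpi AD 5 and at 3.96 in 3mo 5 mpi Ctrl 4. Wnt3 stood apart at 7.37 in 3mo 1 mpi AD 1 and at 5.64 in 3mo 5 mpi Ctrl 4. Wnt6 did so at 0.872 in 3mo 1 mpi AD 1, at 2.51 in 3mo 3 mpi Ctrl 3 and at 2.91 in 12mo 5 mpi AD 6, and in that last library Wnt16 was at 2.56. Wnt16 was also low, at 0.353, in 3mo 1 mpi Ctrl 3, where Wnt7b was at 60.4 and the receptor Fzd3 at 171. Wnt10a stood apart at 2.06 in 3mo 5 mpi Ctrl 3, at 2.81 in 12mo 1 mpi Ctrl 4 and at 2.58 in 12mo 1 mpi AD 2.

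In 12mo 3 mpi Ctrl 5 the receptor Fzd4 (37.7), the inhibitor Sfrp1 (20.6) and the ligand Wnt7a (14.8) stood above the rest of the group, whose highest choroid plexus sum was also in that library. Lrp6 stood apart at 101 in 12mo 3 mpi AD 3, and Sfrp5 at 2.86 in 12mo 5 mpi Ctrl 1. The cohorts differed in the change from 1 to 5 mpi of Wnt9a (-1.03), Wnt8b (1.6) and Wnt9b (1.76), given as 12mo minus 3mo on the log2 scale and tested by limma.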

How the results depend on the processing

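Counts of members called kept within 1.5 times of the value given under DESeq2's size factors, a pseudocount of 1, fits of only the groups compared and the Y-linked covariate. From 1 to 3 mpi at 3mo (5 called) there were 3 without a filter on low genes, 3 with the choroid plexus level, 8 with the thalamus level and as few as 3 without 1 library. For the mean AD difference at 12mo (0) there were 2 with the meninges level. From 1 to 3 mpi at 12mo (1) there were 2 with the choroid plexus level and 2 with the 3 marker levels together, and between the cohorts (15) there were 6 with these together. For the cohorts' difference in the change from 1 to 3 mpi (0) there was 1 by edgeR, 1 by DESeq2, 1 with the thalamus level and at most 1 without 1 library. For that from 1 to 5 mpi (3) there were 5 by edgeR, 6 by DESeq2, 5 with the choroid plexus level and 1 with a mean value of at least 1. Slopes called without 1 library came down to 3 for choroid plexus at 3mo (5), 2 for meninges at 3mo (4) and 2 at 12mo (5). For thalamus at 3mo (2) there were 1 to 4 without 1 library, 1 without a filter and 1 with a mean value of at least 1. Signs turned for Sfrp1 from 1 to 5 mpi at 3mo (0.015 with the choroid plexus level) and for Wnt5a between the cohorts (-0.016 with the meninges level, -0.021 with the 3 together). Without a filter on low genes 11 calls ended: Wnt9b and Sfrp5 from 1 to 3 mpi and Wnt2 and Wnt6 from 1 to 5 mpi at 3mo, Wnt11, Fzd6 and Dkk2 between the cohorts, the cohort difference of Wnt9b, and the slopes of Fzd2 (meninges, 3mo), Wnt2b (thalamus, 3mo) and Fzd5 (choroid plexus, 12mo). The choroid plexus level ended the same calls of Wnt9b and Sfrp5 from 1 to 3 mpi. Between the cohorts edgeR ended those of Sfrp5, Fzd6 and Wnt8b and DESeq2 that of Sfrp5. The thalamus level and each table as deposited ended that of Fzd6. A pseudocount of 1 ended both calls of Wnt9b over time. The cause of these shifts was not tested.

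The replicate numbers do not pair the libraries: same-numbered libraries correlated at -0.21 to 0.51 over 13 pairs at 3mo and at -0.22 to 0.18 over 18 pairs at 12mo, and 7 of 26 and 7 of 36 libraries correlated best with their own number. The replicate block moved no count by over 1.5 times, and it ended 5 calls: Wnt9b from 1 to 3 mpi at 3mo (-1.53, adjusted p = 0.0644), Wnt6 from 1 to 5 mpi at 3mo (1.31, adjusted p = 0.0697), Wnt11 (0.24, adjusted p = 0.0944) and Fzd6 (-0.15, adjusted p = 0.0543) between the cohorts, and the cohort difference of Wnt9b (1.66, adjusted p = 0.0603). Depth limits the statements on Wnt1, Wnt8a, Dkk1 and Dkk4, which were not tested.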
